A study of Mus musculus with 24 samples.

Results

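A set of 10 transcription factors that specify and maintain heart muscle were followed across postnatal day 7.5 mouse hearts lacking *Xinβ*, the gene also called *Xirp2*. They were taken by name from the tables of all genes, through their Ensembl identifiers. All 10 were found, among 15667 genes in uninjected hearts and 15327 in injected hearts, and all 10 passed the filter on low values in both tables. They are the GATA factors *Gata4* and *Gata6*, the homeobox factor *Nkx2-5*, the T-box factors *Tbx5* and *Tbx20*, the MADS-box factors *Mef2a*, *Mef2c* and *Mef2d*, the basic helix-loop-helix factor *Hand2*, and *Meis1*, a homeobox factor known for holding postnatal cardiomyocytes out of the cell cycle.

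RNA from the apex or ventricles was sequenced in 24 libraries, 4 in each of 6 groups. Uninjected Xinβ KO and WT hearts formed 2 of these groups. The other groups were WT/GFP, KO/GFP, WT/YAP and KO/YAP, from mice given adeno-associated virus 9 under the skin at postnatal day 1. The virus carried GFP or an activated, FLAG-tagged human YAP (the serine 127 to alanine form), in both cases driven by a chicken cardiac troponin T promoter that is active in cardiomyocytes. The deletion is germline and so present in every cell type: a LacZ-Neo cassette replaces parts of exons 6 and 7 with the intron between them, in R1 embryonic stem cells bred to C57BL6, and littermates served as controls. Uninjected libraries held 20490875 to 31154155 reads on genes and injected libraries 15015038 to 19444404, and a single member was backed by 204 to 8778 reads in a library. *Xirp2* itself was at most 0.97 CPM in the 12 KO libraries and at least 55.98 CPM in the 12 WT libraries, as the labels say. All 20 cardiomyocyte markers examined were above 0 in every library, which does not tell ventricle from atrium. Of 8 atrial markers, 6 were listed in uninjected and 5 in injected hearts, with none at 0 in any library. They summed to 85.3 to 486 CPM in injected hearts. The atrial markers *Bmp10* and *Fgf12* were not among the genes analysed here.

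These factors act in shared complexes rather than alone. GATA4, NKX2-5 and TBX5 bind near each other at genes of the sarcomere and of the natriuretic peptides, MEF2 and HAND2 join them, and TBX20 acts both as an activator and a repressor in the chambers. GATA6 and GATA4 recognise the same DNA motif, and YAP reaches DNA through the TEAD factors. Several members are not restricted to muscle: GATA4, GATA6, HAND2 and TBX20 are also known from cardiac fibroblasts or from the endocardium.

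Upstream sequence is shown for a member whose level moved with the YAP vector and for 2 target genes that moved in the same hearts, to show which family motifs lie near their starts. Each run is the 250 bases before a RefSeq start site on GRCm38, 5′ to 3′ on the gene's strand, with motif matches in capitals.
Nppa, chr4:148000472-148000721, plus strand: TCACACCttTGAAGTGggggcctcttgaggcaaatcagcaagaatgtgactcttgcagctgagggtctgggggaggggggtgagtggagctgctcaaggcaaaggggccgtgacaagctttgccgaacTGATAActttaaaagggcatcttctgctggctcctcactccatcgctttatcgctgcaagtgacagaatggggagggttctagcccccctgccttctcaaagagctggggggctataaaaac
Tnnt2, chr1:135836084-135836333, plus strand: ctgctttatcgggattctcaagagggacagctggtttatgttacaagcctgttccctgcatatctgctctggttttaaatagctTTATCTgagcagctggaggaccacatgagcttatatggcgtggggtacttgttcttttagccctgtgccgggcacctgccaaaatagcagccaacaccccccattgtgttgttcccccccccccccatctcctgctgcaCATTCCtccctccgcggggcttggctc
Tbx20, chr9:24774304-24774553, minus strand: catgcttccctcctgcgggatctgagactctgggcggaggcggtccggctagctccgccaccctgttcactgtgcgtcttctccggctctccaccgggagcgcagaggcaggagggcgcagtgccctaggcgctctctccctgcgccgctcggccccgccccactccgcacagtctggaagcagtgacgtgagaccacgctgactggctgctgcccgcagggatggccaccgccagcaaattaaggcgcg
Motifs were searched on both strands as GATA (the letters AGATAA, or TGATAA in their place), T-box factors (the letters TCACACC), NKX2 factors (the letters CACTTNA), MEF2 (its palindromic consensus) and TEAD factors (the letters GGAATG). In *Nppa*, which encodes atrial natriuretic peptide, a T-box, an NKX2 and a GATA match lay at -250, -241 and -122 from the start. *Tnnt2*, cardiac troponin T, held a GATA match at -166 and a TEAD match at -27, both on the reverse strand, in the first of its 2 RefSeq windows, and the second, at chr1:135836739-135836988, held no match. None of the 5 motifs matched in the *Tbx20* window. Of 32841 mouse promoter windows, 16.6% held the GATA letters, 3.33% the T-box letters, 10.1% NKX2, 3.2% MEF2 and 12.6% TEAD, and a match is a description of the letters only. Promoter entries were found for 7 of the 10 members.

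Per kilobase of exon, *Nkx2-5* was the most abundant member in all 4 injected groups, at 46.6 ± 6.13 CPM per kb in WT/GFP hearts (SD, n = 4) and 58.0 ± 11.03 in KO/GFP hearts, though with either YAP group its range overlapped that of *Gata4*. In uninjected hearts the first 3 places went to *Mef2d*, *Gata4* and *Nkx2-5*, whose ranges overlapped from one place to the next in both genotypes. *Tbx5*, *Meis1* and *Mef2c* held the last 3 places in every group, and their ranges were separate from each other in all 6. *Mef2c* was lowest, at 0.949 ± 0.143 CPM per kb in WT/GFP hearts (SD, n = 4). Lengths are the union of all annotated exons, 1719 bases for *Nkx2-5* and 15715 for *Mef2c*, so genes with many alternative exons come out low on this scale. The uninjected and injected tables were sequenced separately, in reads of 50 and 150 bases, and levels were tested only within a table.

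**Figure D1:**
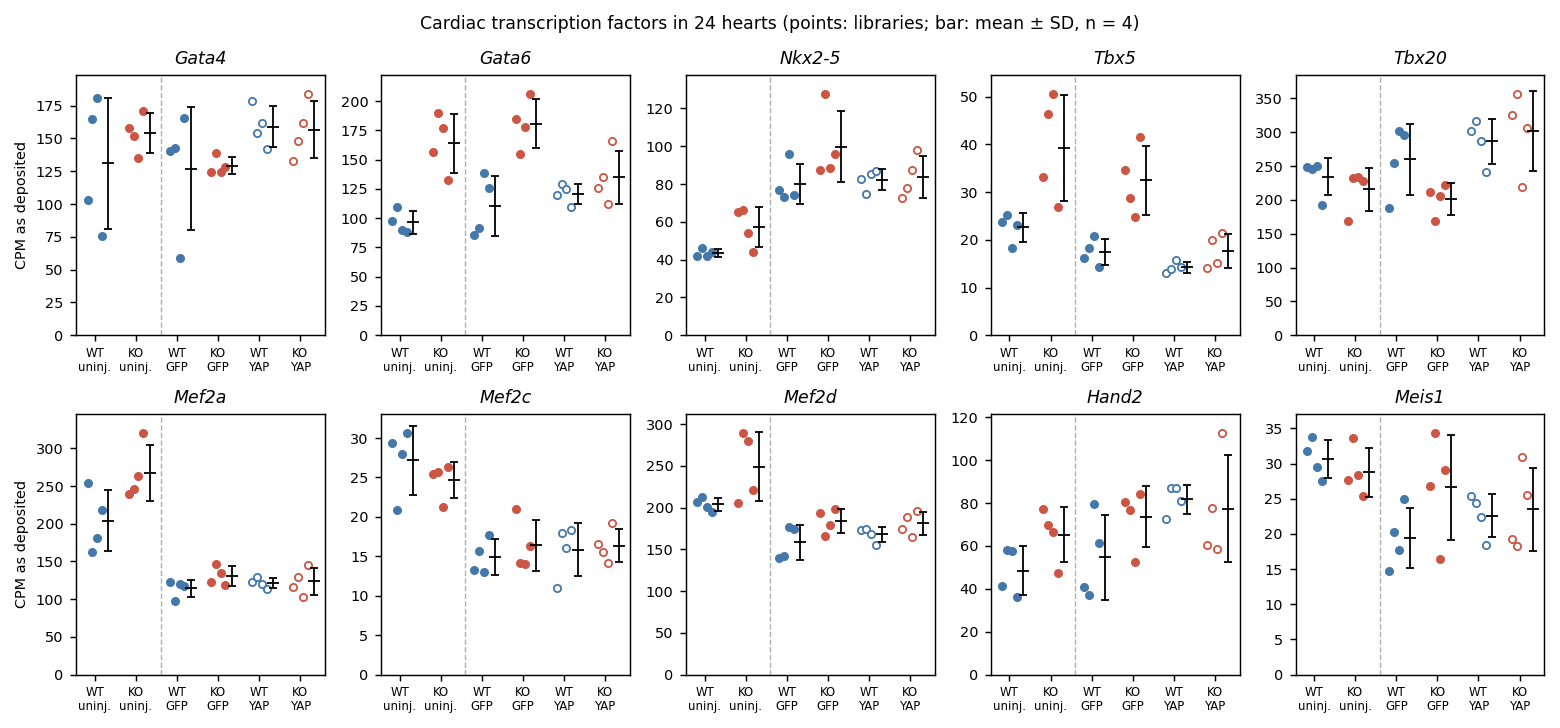
Deposited CPM (vertical axis, starting at 0) of each of the 10 factors in the 6 groups, with 1 point per library, blue for WT, red for KO and open for the YAP vector, and the mean ± SD of 4 libraries beside each group; the dashed line separates the tables. *Gata6* and *Tbx5* stand higher in the KO libraries than in every WT library in both uninjected and GFP hearts.

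The first comparison asked what loss of Xinβ did to these factors in uninjected hearts. *Gata6* was higher in KO hearts, and *Tbx5* was higher in each KO library than in any WT library without passing the adjusted test. *Gata6* (ENSMUSG00000005836, chromosome 18) was at 156.6, 189.8, 177.2 and 132.3 CPM in KO hearts and at 97.8, 109.1, 89.8 and 88.5 CPM in WT hearts. The lowest KO library was above the highest WT library. On the log2(CPM + 1) scale the difference was 0.75 (standard error 0.13, adjusted p = 0.0118 by limma, Benjamini-Hochberg over 15598 genes), which is 1.69-fold. *Gata6* was the 1 member called higher of 10, none was called lower, and 6.69% of all tested genes were called in this comparison, 3.23% higher and 3.46% lower. That share ranged from 2.43% without WT replicate 1 to 13.5% without KO replicate 4, and moved by over 1.5 times whichever of the 8 libraries was left out. Scaled to 20 cardiomyocyte markers instead, *Gata6* differed by 0.51 (adjusted p = 0.0861, limma) and no member was called. In that fit 12% of all genes were called and the median of all genes moved to -0.238. The median log2 difference of the 10 members was 0.341, beside 0.00107 over all tested genes and 0.198 for the cardiomyocyte markers. Lists described below had 0.226 (textbook targets of the members), 0.1 (other cardiac factors) and -0.105 (partners and regulators). Fold changes on this scale understate those of genes with low values.

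*Tbx5* (ENSMUSG00000018263, chromosome 5, 119832668 to 119885219) drives chamber and conduction genes. It was at 33.2, 46.4, 50.6 and 26.9 CPM in KO hearts and at 23.7, 25.3, 18.4 and 23.0 CPM in WT hearts. The groups did not overlap, as for 8.01% of all tested genes in the direction of higher KO, and the log2 difference of 0.74 (standard error 0.20) had an adjusted p of 0.0616 in limma. Its adjusted p was 0.0118 without KO replicate 4, 0.00398 with *Ddx3y*, a Y-linked gene, as a covariate, and 0.00518 in DESeq2 on recovered reads. These fits called 13.5%, 12.4% and 12.5% of all genes, in place of 6.69%. By the paper's methods, males and females were equally mixed in every RNA-seq group. It passed in 1 of 8 fits with a library left out, with adjusted p up to 0.167, and in 2 of 12 other alternatives, with adjusted p up to 0.204. KO replicate 4 also had the lowest KO values of *Nkx2-5* and *Hand2*.

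The remaining members overlapped between uninjected KO and WT hearts. *Nkx2-5* was at 65.4, 66.0, 53.8 and 44.1 CPM in KO hearts and 42.1, 46.3, 42.0 and 43.9 CPM in WT hearts, with a log2 difference of 0.37 (adjusted p = 0.145, limma). Its adjusted p fell to 0.0204 without KO replicate 4 and to 0.0469 with the *Ddx3y* covariate, and it missed the test in the other 7 of 8 fits with a library left out (up to 0.306) and in 11 of 12 alternatives (up to 0.559). *Mef2a*, *Mef2d*, *Hand2* and *Gata4* had log2 differences of 0.40, 0.27, 0.43 and 0.31, and *Tbx20*, *Mef2c* and *Meis1* of -0.13, -0.12 and -0.09, none past the test. For *Gata4* the WT libraries alone ran from 75.5 to 180.8 CPM, and the 95% interval of its difference ran from -0.26 to 0.89.

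In GFP-injected hearts, KO against WT, both *Gata6* and *Tbx5* were higher and no member was lower. *Gata6* was at 184.3, 154.8, 177.5 and 206.1 CPM in KO/GFP hearts and at 85.7, 91.9, 138.4 and 126.1 CPM in WT/GFP hearts, a log2 difference of 0.73 (standard error 0.15, adjusted p = 0.00397, limma over 14597 genes). *Tbx5* was at 34.6, 28.7, 24.9 and 41.6 CPM against 16.1, 18.2, 20.7 and 14.4 CPM, a log2 difference of 0.85 (standard error 0.16, adjusted p = 0.00281), or 1.80-fold. Neither gene overlapped between the groups, and both kept their calls when any single library was left out. These 2 of 10 members stand beside 13.7% of all tested genes called, 6.43% higher and 7.22% lower (8.65% called without KO/GFP replicate 1 or 4), and beside 7.32% whose groups did not overlap with KO/GFP higher. The members' median log2 difference was 0.264, against -0.00921 for all genes and 0.0803 for the cardiomyocyte markers. It was 0.164 for the textbook targets, 0.145 for other cardiac factors and 0.105 for partners and regulators.

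*Tbx20* ran the other way in value, at 211.1, 168.2, 205.2 and 222.3 CPM in KO/GFP and 188.6, 253.9, 301.2 and 295.3 CPM in WT/GFP hearts, with a log2 difference of -0.35 (adjusted p = 0.173, limma). Without WT/GFP replicate 1, the lowest WT/GFP value, it was -0.49 with an adjusted p of 0.0497, and in the other 15 such fits the adjusted p reached 0.348. *Meis1* was at 26.8, 34.3, 16.5 and 29.0 CPM against 14.7, 20.3, 17.7 and 24.9 CPM, a log2 difference of 0.42 (adjusted p = 0.219) that became 0.62 with an adjusted p of 0.0396 without KO/GFP replicate 3, with adjusted p up to 0.446 in the other 15 fits. *Nkx2-5*, *Mef2a*, *Mef2d*, *Hand2* and *Mef2c* had log2 differences of 0.30, 0.19, 0.22, 0.47 and 0.12 and did not pass. With a library left out these ran from 0.18 to 0.39 for *Nkx2-5*, 0.12 to 0.24 for *Mef2a* and 0.17 to 0.28 for *Mef2d*. They ran from 0.31 to 0.67 for *Hand2* and 0.0016 to 0.20 for *Mef2c*, and none passed. For *Gata4* the difference of 0.12 turned to -0.21 without WT/GFP replicate 3, which held 58.7 CPM beside 140.5 to 165.8 CPM in the other WT/GFP hearts.

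**Figure D2:**
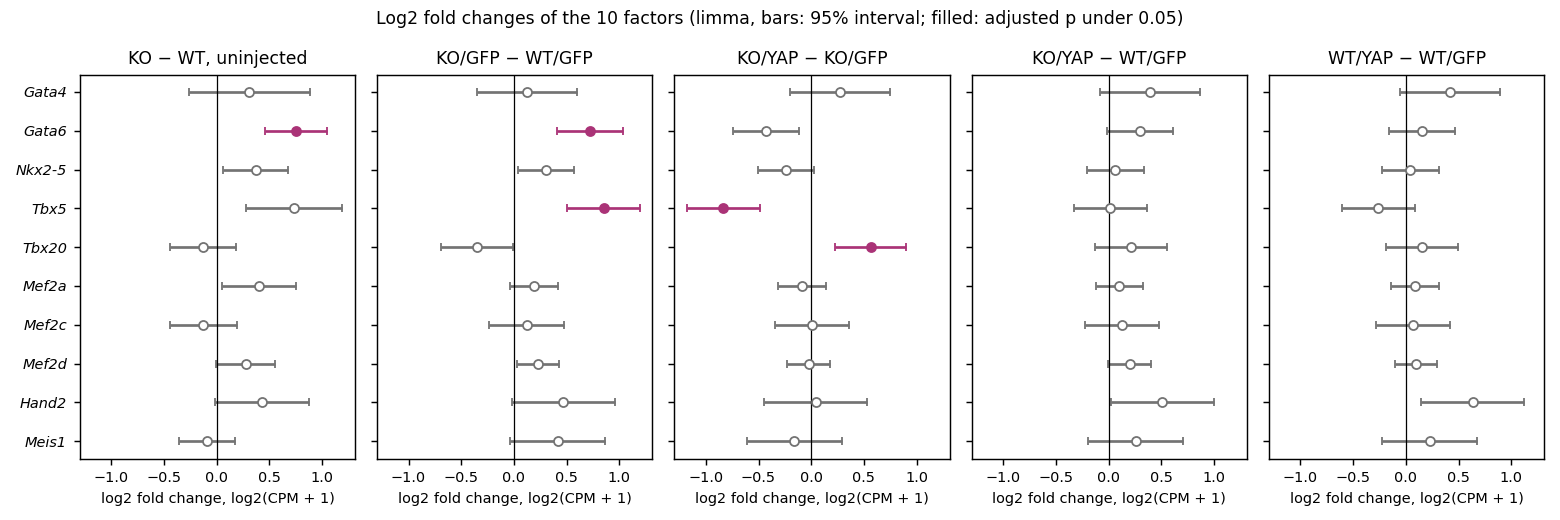
Log2 fold changes on the log2(CPM + 1) scale (horizontal axis) of the 10 factors (rows) in 5 comparisons, with 95% intervals from limma; filled points have an adjusted p under 0.05. *Gata6* is filled in both KO against WT panels, *Tbx5* in the GFP panel and again, below 0, in the KO/YAP against KO/GFP panel, where *Tbx20* is filled above 0, and no member is filled in the last 2 panels.

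The next comparison asked how the YAP vector changed these factors in KO hearts. It shares the KO/GFP libraries with the one before, so the comparisons are not independent. *Tbx5* was lower in KO/YAP hearts, at 14.2, 19.9, 15.2 and 21.5 CPM, than in KO/GFP hearts, with no overlap and a log2 difference of -0.83 (standard error 0.16, adjusted p = 0.00303, limma). *Tbx20* (ENSMUSG00000031965, chromosome 9, 24718138 to 24774303) was higher, at 325.1, 356.6, 218.3 and 306.6 CPM, a log2 difference of 0.56 (standard error 0.16, adjusted p = 0.0271). KO/YAP replicate 3 lay below the highest KO/GFP library, so these groups overlapped. With 1 member higher and 1 lower of 10, this stands beside 14.8% of all genes called, 7.85% higher and 6.92% lower, and groups did not overlap with KO/YAP lower for 8.52% of genes. The median of the members was -0.0563, and that of all genes 0.01.

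The *Tbx20* call was narrow. Its adjusted p was 0.0622 without KO/GFP replicate 2, 0.0759, 0.0877 and 0.0592 without KO/YAP replicates 1, 2 and 4, and 0.0502 with only the groups compared in the fit. *Gata6*, at 126.1, 134.8, 112.5 and 165.9 CPM in KO/YAP hearts, had a log2 difference of -0.43 from KO/GFP hearts (standard error 0.15, adjusted p = 0.0625), and its adjusted p was 0.0378 without KO/GFP replicate 2, 0.0309 without KO/YAP replicate 4, 0.0461 without WT/GFP replicate 1 and 0.0451 without WT/GFP replicate 3. It missed the test in 12 of 16 such fits, with adjusted p up to 0.165, and in 11 of 13 other alternatives, with adjusted p up to 0.220. *Gata4* and *Nkx2-5* differed by 0.27 and -0.24, and the MEF2 genes, *Hand2* and *Meis1* by -0.16 to 0.04, none past the test.

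Against WT/GFP hearts, no member of KO/YAP hearts passed, where 3 genes (0.0206% of all) did by limma and 888 genes had an unadjusted p under 0.05. DESeq2 called 24 genes (0.164%), and limma 1 without KO/YAP replicate 1 or 3. *Tbx5* differed by 0.02 on the log2 scale, with a 95% interval from -0.33 to 0.36, and *Gata6* by 0.30, from -0.01 to 0.61. *Hand2* had the smallest unadjusted p of the members, at 0.0417 by limma with a difference of 0.51 and an adjusted p of 0.801. That difference was 0.31 without KO/YAP replicate 4 and 0.71 without WT/GFP replicate 3.

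In WT hearts the YAP vector changed no member past the test, and 0% of 14597 genes were called by limma, with 1011 at an unadjusted p under 0.05, 0 called by edgeR and 11 by DESeq2. *Hand2* was at 72.4, 86.8, 86.8 and 80.9 CPM in WT/YAP hearts and 40.8, 37.1, 79.4 and 61.2 CPM in WT/GFP hearts, a log2 difference of 0.64 (adjusted p = 0.696). *Tbx5* was at 13.04, 13.9, 15.8 and 14.3 CPM with the vector, a difference of -0.26 (adjusted p = 0.811). Between KO/YAP and WT/YAP hearts no member passed, where 6 genes (0.0411%) passed by limma and 67 (0.459%) by DESeq2. The limma count was 15 without KO/GFP replicate 2 and 2 without WT/YAP replicate 2. Whether the vector acted differently in KO and WT hearts was tested as an interaction, which no member passed, beside 7.56% of all genes (4.32% without WT/YAP replicate 4 to 10.1% without KO/GFP replicate 2): *Gata6* had -0.58 (adjusted p = 0.102), *Tbx5* -0.57 (adjusted p = 0.140) and *Tbx20* 0.41 (adjusted p = 0.294). Without WT/GFP replicate 3 the *Gata6* interaction was -0.70 with an adjusted p of 0.0469, and it passed in none of the other 15 fits with a library left out, where the adjusted p reached 0.190.

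Within families, the balance of *Tbx5* to *Tbx20* per kilobase was 0.413 ± 0.0721 in KO/GFP hearts (SD, n = 4), 0.176 ± 0.0389 in WT/GFP hearts, 0.153 ± 0.0327 in KO/YAP hearts and 0.129 ± 0.0208 in WT/YAP hearts. Every KO/GFP library was above every other injected library. The ratios in this paragraph are built from the member values given above and are not separate results. In uninjected hearts the ratio was 0.470 ± 0.113 in KO and 0.251 ± 0.0493 in WT, and KO replicate 4, at 0.304, lay below WT replicate 4, at 0.307. *Gata6* relative to *Gata4* was 0.843 ± 0.125 in KO/GFP hearts and 0.518 ± 0.0688 in KO/YAP hearts, without overlap. In uninjected hearts it was 0.649 ± 0.149 in KO and 0.492 ± 0.1799 in WT, and the groups overlapped. In WT/GFP hearts this ratio spread from 0.366 to 1.41, the top value coming from replicate 3 with its low *Gata4*. Among the MEF2 genes *Mef2d* held 71.7% to 78.5% of the summed level per kilobase in injected libraries and *Mef2c* 1.83% to 3.35%.

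**Figure D3:**
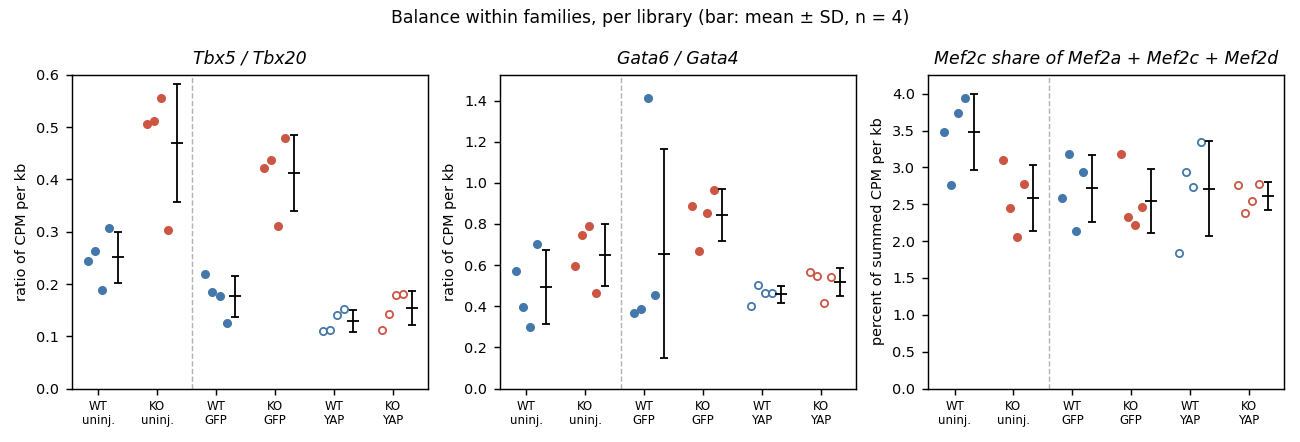
Ratio of *Tbx5* to *Tbx20* and of *Gata6* to *Gata4* (CPM per kb), and the share of *Mef2c* in the MEF2 genes (percent), for each library in the 6 groups, with mean ± SD of 4 libraries. The 4 KO/GFP libraries lie between 0.311 and 0.480 in the *Tbx5* to *Tbx20* panel and all 12 other injected libraries at or below 0.220.

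On the strand opposite *Gata6*, the non-coding gene *1010001N08Rik* moved with it at a lower level, 4.96 to 16.9 CPM in injected hearts. Its log2 difference was 0.97 in uninjected KO hearts (adjusted p = 0.0494, limma), 1.07 in KO/GFP hearts (adjusted p = 0.000575) and -0.82 for KO/YAP against KO/GFP (adjusted p = 0.00339), and its interaction of -0.92 passed (adjusted p = 0.0258). The libraries were strand-specific, but whether reads were counted by strand is not given in the sources used here, so reads of both genes may not be fully separate. *Hand2os1*, opposite *Hand2*, was at 58.1 to 112 CPM in injected hearts and passed in no comparison, like *Hand2* itself. *1700113A16Rik*, opposite *Mef2d*, passed for KO/YAP against KO/GFP (-0.53, adjusted p = 0.0252, limma) and for the interaction (-0.82, adjusted p = 0.0298), where *Mef2d* was at -0.03 and -0.12 and passed neither. *Lysmd4* and *Gm44667*, which overlap *Mef2a*, passed in no comparison.

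The genes whose pattern over the 16 injected libraries was most like each called member were taken by Pearson correlation of log2 values. For *Gata6* they were *Txlnb* (r = 0.936, rho = 0.932), *Trim63* (r = 0.932, rho = 0.924) and *Klf9* (r = 0.932, rho = 0.9). For *Tbx5* they were *Mlycd* (r = 0.948, rho = 0.832), *Lpl* (r = 0.943, rho = 0.856) and *Creg1* (r = 0.939, rho = 0.853), and for *Tbx20* they were *Adam19* (r = 0.901), *Dyrk2* (r = 0.895) and *Ppara* (r = 0.889). These libraries share groups and depth, so the values are descriptions.

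Other cardiac transcription factors were read the same way. Of 36 listed by name, 31 could be tested: 3 were higher and 0 lower in uninjected KO hearts, 9 higher and 1 lower in KO/GFP against WT/GFP, and 2 higher and 8 lower in KO/YAP against KO/GFP. Over all genes the shares were 3.23% higher and 3.46% lower, 6.43% and 7.22%, and 7.85% and 6.92% in the same order. *Klf15*, a Krüppel-like factor of cardiac metabolism, was at 44.88, 18.57, 36.51 and 56.95 CPM in KO/GFP hearts and at 4.57 to 12.88 CPM in WT/GFP hearts. Its log2 difference was 2.06 there (adjusted p = 0.000425, limma), 1.87 in uninjected hearts (adjusted p = 0.00254) and -1.47 for KO/YAP against KO/GFP (adjusted p = 0.00402).

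*Hey2*, a Notch-responsive repressor of the ventricular compact layer, differed by 0.65 in uninjected hearts (adjusted p = 0.0645, limma), by 1.39 in KO/GFP against WT/GFP (adjusted p = 0.00404) and by -2.01 with the YAP vector in KO hearts (adjusted p = 0.000286), ending at 3.83 to 5.55 CPM. Its paralogue *Hey1* was at -0.56 in uninjected hearts (adjusted p = 0.0968, not called), -1.06 in KO/GFP against WT/GFP (adjusted p = 0.00614) and 0.86 in KO/YAP against KO/GFP (adjusted p = 0.0192). *Irx3*, an Iroquois factor of the conduction system, was at 1.11, 1.26 and -1.83 in uninjected KO against WT, KO/GFP against WT/GFP and KO/YAP against KO/GFP (adjusted p = 0.0163, 0.00734 and 0.000569). These 4 factors were named for the size of their KO against WT differences, and KO/YAP against KO/GFP shares the KO/GFP libraries. *Hoxb13*, a partner of MEIS1, was not analysed here.

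Of 22 partners and regulators of the members tested, 2 were called in uninjected KO hearts, 4 in KO/GFP hearts and 3 in KO/YAP against KO/GFP, beside 6.69%, 13.7% and 14.8% of all genes. In uninjected KO hearts 1 was higher and 1 lower, the latter being *Mapk7*, a kinase of MEF2 (-0.60, adjusted p = 0.0393). In KO/GFP hearts 2 were higher and 2 lower: *Crebbp*, an acetyltransferase that co-activates GATA4 and MEF2, rose by 0.52 (adjusted p = 0.00209), *Hdac5*, a repressor of MEF2, by 0.45 (adjusted p = 0.0129), and *Mrtfa*, a co-activator of SRF, differed by -0.41 (adjusted p = 0.0268). With the YAP vector in KO hearts these 3 were at -0.41, -0.44 and 0.47, all past the test.

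Of 32 textbook targets of the members, 30 were tested in uninjected hearts, with 3 higher and 2 lower, *Xirp2* itself among the lower, and 29 in injected hearts, with 8 higher and 1 lower, the deleted *Xirp2*, in KO/GFP and 0 higher and 7 lower in KO/YAP against KO/GFP. The shares of all genes called in these comparisons were 6.69%, 13.7% and 14.8%. *Cdkn1a*, the cell cycle inhibitor p21 and a target of MEIS1, was at 109.14, 76.5, 109.69 and 124.48 CPM in KO/GFP hearts and 44.93 to 58.69 CPM in WT/GFP hearts, a log2 difference of 1.06 (adjusted p = 0.000287), with 1.51 in uninjected hearts (adjusted p = 0.00145). *Meis1* itself passed in neither comparison, and *Cdkn2b* was not analysed here. *Pln*, phospholamban, differed by 1.38 and 0.53 (adjusted p = 0.0428 and 0.00219) and by -0.41 with the vector. *Corin*, the protease that processes natriuretic peptides, was 1.29 higher on the log2 scale in KO/GFP hearts (adjusted p = 0.00185) and 1.01 higher in uninjected KO hearts (adjusted p = 0.0687).

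The targets with sequences above were chosen after their values were seen. *Tnnt2* differed by 0.60 in uninjected KO hearts, 0.65 in KO/GFP hearts and -0.62 for KO/YAP against KO/GFP (adjusted p = 0.0454, 0.00132 and 0.00169). The vectors use a chicken promoter of the same gene, and whether the vector's own level differed between genotypes was not tested. *Nppa* was at 266.01, 417.4, 380.57 and 198.57 CPM in KO/GFP hearts and at 28.13, 65.72, 162.92 and 76.87 CPM in KO/YAP hearts, without overlap, a log2 difference of -2.11 (adjusted p = 0.00369). KO/GFP and WT/GFP hearts overlapped for *Nppa*, which is also an atrial marker.

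**Figure D4:**
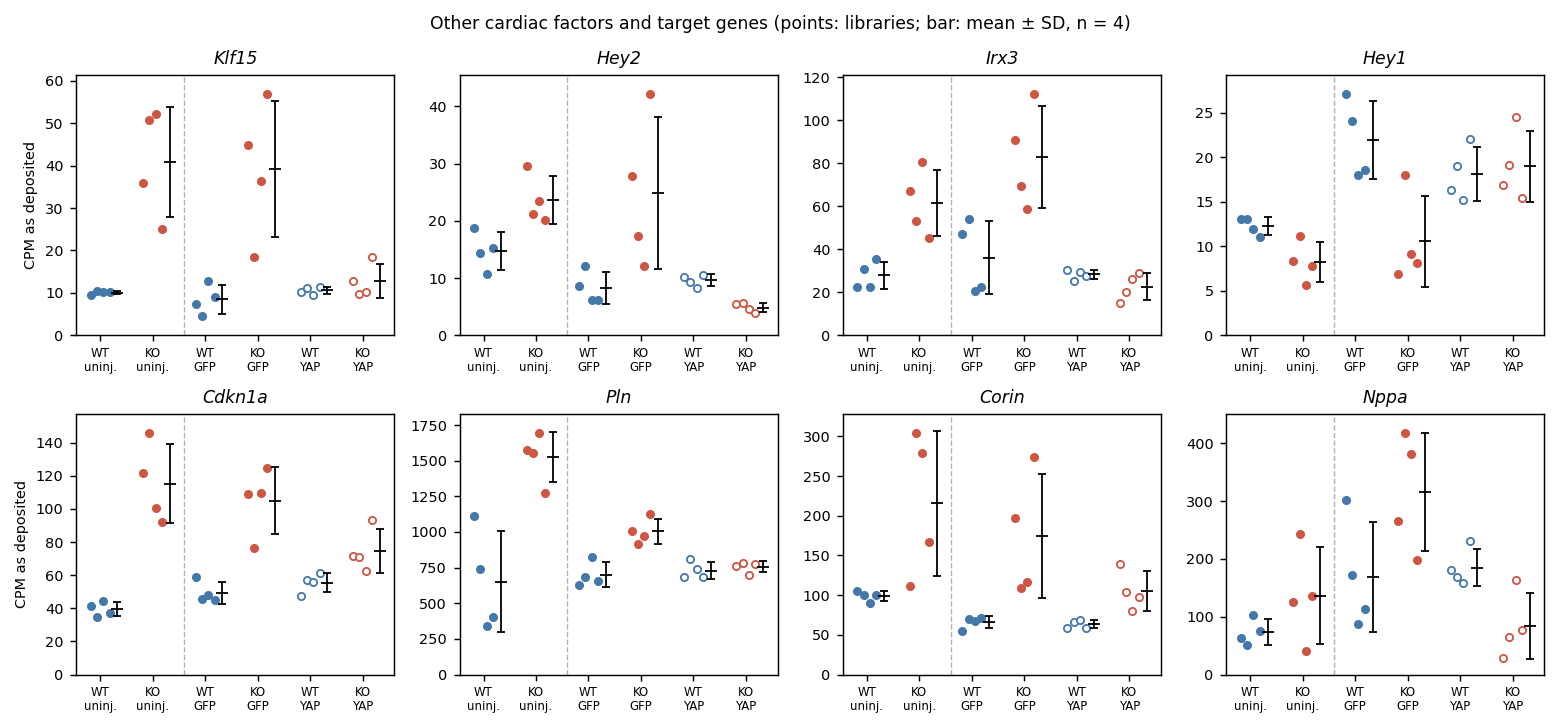
CPM (vertical axis, starting at 0) of 4 other cardiac factors (*Klf15*, *Hey2*, *Irx3*, *Hey1*) and 4 target genes (*Cdkn1a*, *Pln*, *Corin*, *Nppa*) in each library of the 6 groups, with mean ± SD of 4 libraries. *Klf15* in KO/GFP hearts reaches 56.95 CPM, against at most 12.88 CPM in WT/GFP hearts, and *Nppa* falls to between 28.13 and 162.92 CPM in KO/YAP hearts.

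Markers of cell types were compared in the same hearts. Of all genes, 3.23% were called higher and 3.46% lower in uninjected KO hearts, 6.43% and 7.22% in KO/GFP against WT/GFP. In KO/YAP against KO/GFP the shares were 7.85% and 6.92%, and the marker counts below stand beside these. The summed level of 10 fibroblast markers was 2661 to 4036 CPM in uninjected KO and 5402 to 5636 CPM in uninjected WT hearts, with 5 of 10 lower, and 2254 to 3692 CPM in KO/GFP and 4803 to 5676 CPM in WT/GFP hearts, with 8 of 10 lower. It was 5207 to 6256 CPM in KO/YAP hearts, with 8 of 10 higher than in KO/GFP. Macrophage markers were lower in 6 of 9 and 7 of 10 in the KO comparisons and higher in 6 of 10 with the vector, and of 3 endocardial markers 2 were higher in each KO comparison and 2 lower with the vector. Erythroid markers were lower in 5 of 6 in KO/GFP against WT/GFP and in 0 of 5 in uninjected hearts. Summed epicardial markers were 27.9 to 64.6 CPM in KO/GFP and 74.3 to 85.7 CPM in WT/GFP hearts, and 35.0 to 47.9 CPM in uninjected KO and 58.7 to 64.9 CPM in uninjected WT hearts, with 1 of 5 and 1 of 3 called lower. Smooth muscle and pericyte markers summed to 2493 to 2961 CPM in KO/YAP hearts and 1672 to 2166 CPM in KO/GFP hearts, with 3 of 10 higher. Of 10 endothelial markers, 2 were higher and 1 lower in uninjected KO hearts, 1 higher and 3 lower in KO/GFP hearts, and 2 higher and 2 lower with the vector. No atrial marker passed in the KO comparisons, and 1 of 4, the *Nppa* described above, was lower with the vector. The summed 20 cardiomyocyte markers were 92480 to 123031 CPM in uninjected KO and 86032 to 95779 CPM in uninjected WT hearts, with 2 of 20 higher in KO. In KO/GFP against WT/GFP 3 of 20 were higher, and in KO/YAP against KO/GFP 4 of 20 were lower, with none called the other way in these 3 comparisons. The part of cell composition in the members' differences was not tested, and in bulk tissue fewer cells of a type cannot be told apart from less RNA per cell.

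**Figure D5:**
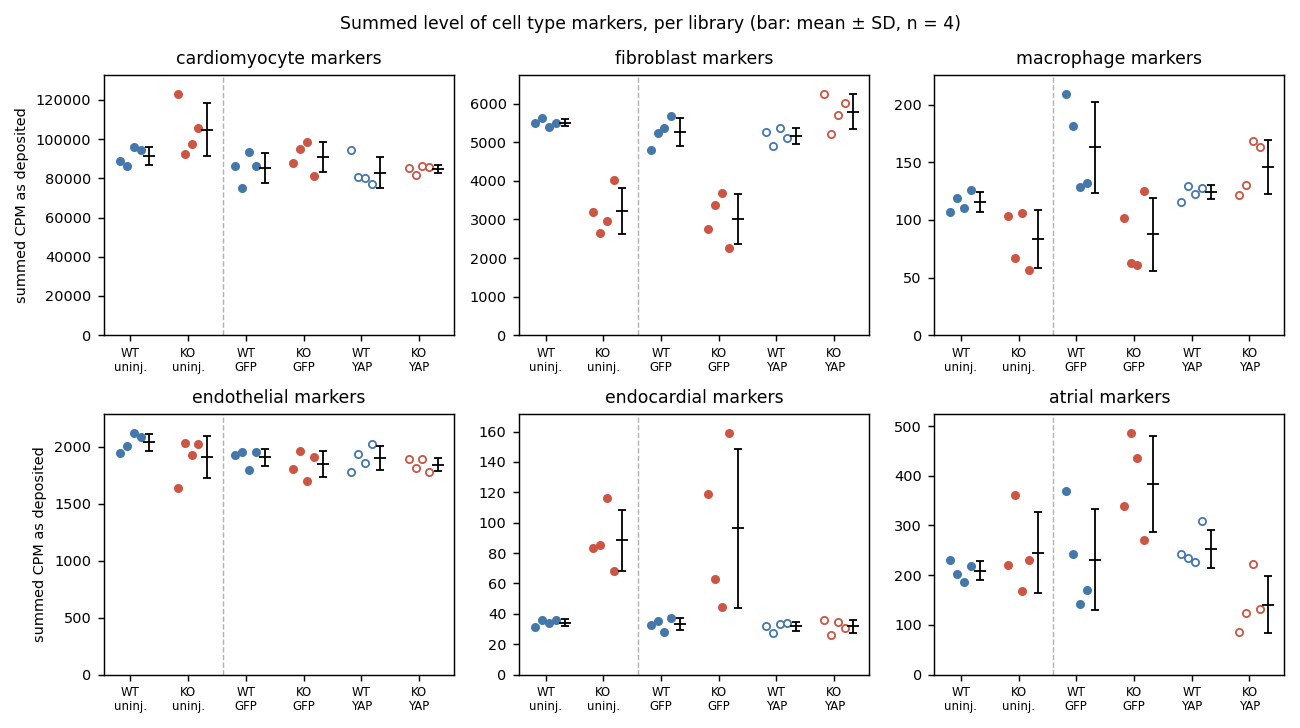
Summed CPM (vertical axis, starting at 0) of marker genes of 6 cell types in each library of the 6 groups, with mean ± SD of 4 libraries. The 4 KO/GFP libraries lie between 2254 and 3692 CPM in the fibroblast panel, below all other injected libraries.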

How the data were processed

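RNA-seq of ventricular tissue gave 24 libraries in 6 groups of 4, grouped by their labels. Per the labels and the study's methods, the authors used Cutadapt 2.3 for trimming, HISAT2 2.1.0 for alignment to GRCm38, StringTie 1.3.4 for transcript assembly and edgeR 3.26.1 for CPM. The deposited values are a normalized signal, CPM whose columns sum to between 942566 and 1134439. That they were scaled by TMM factors is a reading of those sums, not a stated step. The lowest step of each library gave the worth of 1 read, and at least 99.9% of values were whole reads, within 0.02 of a read. Nothing says that the samples of a group came from separate litters. The p-values set each group difference against the spread between samples. If samples of a group shared litters, that spread may understate the spread between litters.

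Groups were compared with limma 3.58.1 (mean-variance trend, two-sided) on log2(CPM + 1), over genes above 1 CPM in at least 4 of 8 or 8 of 16 libraries (15598 and 14597 genes), with Benjamini-Hochberg adjustment and calls at an adjusted p under 0.05. One model held the 16 injected libraries. The study used Fisher's exact test; limma was used here because the deposited values are normalized and replicated. On simulated data with 200 changed genes, 100 each of log2 size 1 and 2, all 200 were recovered. Beside them stood 18 false calls in the uninjected setting (15598 genes) and 9 in the injected (14597 genes). Every simulated gene had the same spread, and only genes with many reads were changed, while the coefficient of variation of *Gata4* reached 38.1% within a group. Smaller changes, such as those of the members, were not simulated. Symbols and positions are from GENCODE M21, promoters from RefSeq on GRCm38.p6. The members and gene lists were chosen with earlier results of these data known. Other genes were named as the up to 4 largest called changes in each list in the KO against WT comparisons, plus *Xirp2*, *Hoxb13*, *Cdkn1a* and *Cdkn2b*. *Tnnt2* and *Nppa*, the genes overlapping members and the cell type markers were named outside this rule. Alternatives were other scalings, filters and a pseudocount of 0.1, no trend, edgeR 4.0.16 and DESeq2 1.42.0 on recovered reads, a *Ddx3y* covariate, a replicate block, only the groups compared, and each library left out. Scaling to cardiomyocyte markers was chosen after seeing the data. R 4.3.3, Python 3.11.15 and matplotlib 3.10.9 were used.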

Additional observations from a re-analysis of the deposited data

Results flagged for a closer look

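In 3 of 60 group-by-gene sets of 4 libraries, 1 library stood apart from the rest by Dixon's test, and chance flags about 3 of 60. *Nkx2-5* was at 95.7 CPM in WT/GFP replicate 3, beside 73.3 to 77.0 CPM in the other WT/GFP hearts. *Tbx20* was at 168 CPM in uninjected KO replicate 1, beside 227.4 to 233.4 CPM, and at 193 CPM in uninjected WT replicate 4, beside 246 to 251 CPM.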

How the results depend on the processing

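No member changed direction past the test under any alternative run. In uninjected hearts the 1 called member became 2 with DESeq2 (*Tbx5* added), 3 with the *Ddx3y* covariate (*Tbx5* and *Nkx2-5* added) and 0 when scaled to cardiomyocyte markers. Of all genes, 12.5%, 12.4% and 12% were called in these settings, in place of 6.69%. With single libraries left out it was 1 to 3 members, beside 2.43% to 13.5% of all genes. In KO/GFP against WT/GFP it was 2 members under every alternative, beside 6.37% to 16.4% of all genes, and 2 to 3 with libraries left out, beside 8.65% to 18.9%. In KO/YAP against KO/GFP the 2 calls became 1 with only the groups compared (*Tbx20*, adjusted p = 0.0502, limma) and 3 with DESeq2 and with quantile normalization (*Gata6* added, adjusted p = 0.0458 and 0.047). Of all genes, 8.28%, 17.9% and 14.5% were called in these settings, in place of 14.8%. With libraries left out the calls were 1 to 3, beside 10.1% to 17.1% of all genes. The interaction had 0 to 1 called members with libraries left out, beside 4.32% to 10.1% of all genes. The other comparisons had 0 members called throughout.

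Replicate numbers did not pair the samples: same-numbered samples correlated between -0.191 and 0.137 in their deviations. With a replicate block, KO/YAP against KO/GFP had 1 called member (*Tbx20* lost, adjusted p = 0.0525), where the share of genes called went from 14.8% to 12.6%. That share went from 6.69% to 2.47% in uninjected hearts and from 7.56% to 4.84% for the interaction. Of all genes, the count in uninjected hearts was 956 by edgeR, 1955 by DESeq2 and 1927 with the *Ddx3y* covariate. With only the groups compared, KO/GFP against WT/GFP had 930 genes in place of 1993 and KO/YAP against KO/GFP 1208 in place of 2156. By edgeR these comparisons had 1904 and 2103.

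Scaling to equal column sums moved the median of all genes to -0.123 in uninjected hearts, -0.108 in KO/GFP against WT/GFP and 0.126 in KO/YAP against KO/GFP. The calls were then 353 higher of 1594, 590 of 2349 and 2156 of 2747, where they had been 504 of 1044, 939 of 1993 and 1146 of 2156. Scaling to cardiomyocyte markers gave 212 higher of 1877, 386 of 2089 and 1517 of 1945, with medians of -0.238, -0.137 and 0.117. The interaction had 631 to 727 genes called, in place of 1104, without any of WT/GFP replicate 2, KO/GFP replicate 1, WT/YAP replicates 2, 3 and 4, or KO/YAP replicates 1 and 2. The cause of these differences was not tested. The spread of *Gata4* within a group reached 38.1% (coefficient of variation).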
